A study of Arabidopsis thaliana with 6 samples.

Results

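The 60 genes described here encode 23 proteins of the small (40S) subunit of the cytosolic ribosome of Arabidopsis thaliana. Those described by name are the 49 genes of 19 of them: RPSa, RPS2, RPS3, RPS3a, RPS4, RPS6, RPS7, RPS9, RPS10, RPS12 to RPS15, RPS15a, RPS16, RPS18 to RPS20 and RPS24. They were taken by locus from a list in which the paralogs of each protein stand together, and all 60 were found among the 20423 genes of the deposited table. Of the 23 proteins, 10 are encoded by 2 listed paralogs, 12 by 3 and 1 by 4.

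The data compare roots of wild type Col-0 seedlings, 3 days after germination, kept for 6 h in liquid growth medium (Control) or in the same medium to which 1 µM of the natural auxin IAA (indole-3-acetic acid) was added. Per the labels, each group had 3 libraries, each made from about 100 pooled roots. Total RNA was depleted of ribosomal RNA and sequenced on the SOLiD platform. Whole roots were sampled, so a value is an average over all root cell types, and fewer cells of a type and less RNA per cell cannot be told apart. The table used here gives the authors' mean normalized read count of each group and 0 values per library, so no spread between libraries, depth per library or test across libraries is given below. Over all genes these means sum to 919275 in Control and 873654 with IAA. The fold change of a gene is its IAA mean over its Control mean.

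The 40S subunit binds the mRNA, carries the initiator tRNA to the start codon and reads each codon, and its proteins surround an 18S rRNA core. In Arabidopsis each ribosomal protein is encoded by a small family of genes, whose members often yield near-identical proteins while their transcripts can differ much in level. Dividing and growing cells, such as those of the root meristem, need many new ribosomes, and auxin is known to promote division of the cells that form lateral roots.

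All 60 genes had a higher mean with IAA than in Control. A minimum was set at an average of both means of at least 10, which 57 of the 60 passed, and 1 of these, the RPSa gene AT3G04770, had a Control mean under 10. All 57 had a fold change above 1. The same held for 5499 of the 11132 genes of the table that passed this minimum with both means above 0. Among the 57, 41 (71.9%) had a fold change of at least 1.5, 16 lay between, and none had a fold change at or below 1/1.5. Of the 11139 genes of the table that passed the same minimum, 23.6% had a fold change of at least 1.5 and 21.9% lay at or below 1/1.5. Of the 41 genes, 28 had fold changes from 1.5 to under 2, 9 from 2 to under 3, and 4 of at least 3. The median fold change of the 57 was 1.71 (log2, 0.77), with quartiles of 1.47 and 1.92. The median log2 fold change of the 11132 genes with both means above 0 was -0.01.

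Counting error was the only error that could be estimated. Low means of a column lie on sums of 2 step sizes, the values of single reads in libraries of different depth, and the reads behind a mean were taken as the mean over the larger step. An exact 95% interval of the fold change (Clopper-Pearson) was computed from these reads; it covers counting error only, not the spread between libraries, and PCR copies are not independent molecules. By this measure, 55 of the 57 genes (96.5%) had an interval above 1 and none an interval below 1, against 24.2% and 23.6% of all genes. Both exceptions, the RPS7 gene AT1G48830 and the RPS15a gene AT1G07770, had intervals that held 1.

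**Figure D1:**
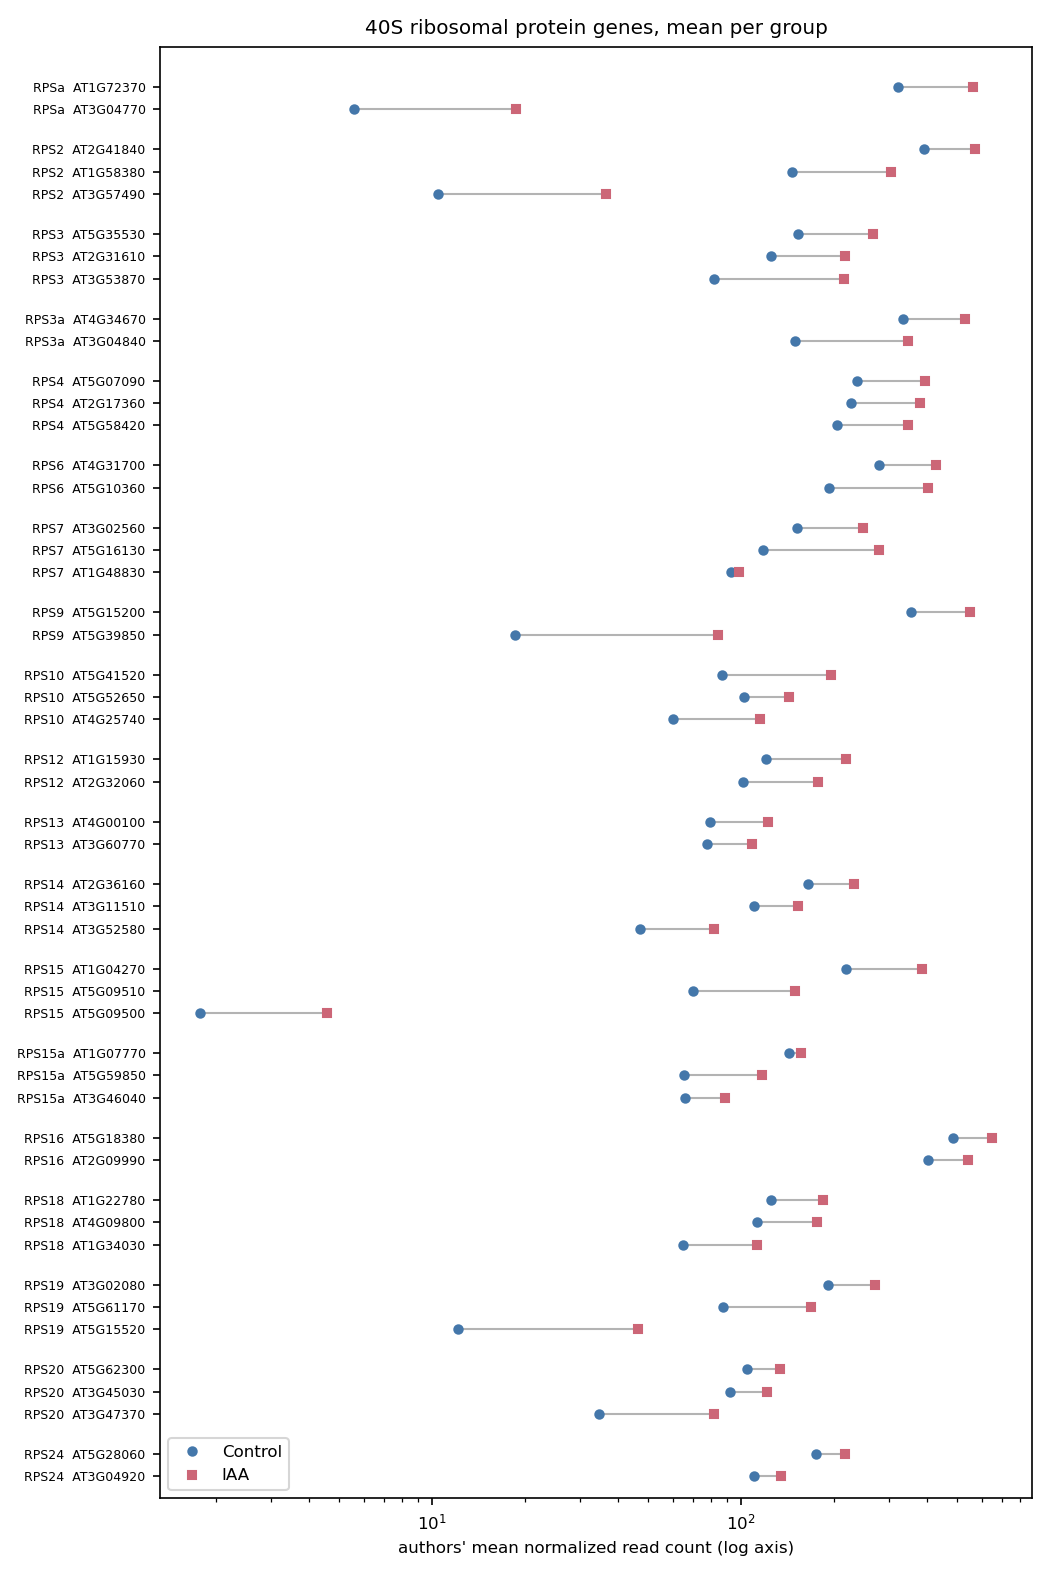
Authors' mean normalized read count of single 40S genes in Control (circles) and with IAA (squares), on a log axis, grouped by protein with the highest paralog first; means carry no error bars because the table gives no value per library. The 49 genes of 19 proteins are shown. In every line the square lies to the right of the circle, from 486.08 and 649.57 for the RPS16 gene AT5G18380 to 1.77 and 4.56 for the RPS15 gene AT5G09500.

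The means of the 60 genes summed to 8500 in Control and 14061 with IAA, a fold change of 1.65. These sums were 0.925% and 1.61% of all means of the table. Among the 51 genes with an average mean of at least 60, the fold changes ran from 1.06 to 2.63, with a median of 1.68. Their log2 fold changes had an SD of 0.28 across genes, against 1.05 for all 2685 genes at that level, whose median fold change was 0.993. The fold changes of the well-expressed 40S genes thus lay closer together than those of all genes at that level. These SDs are across genes, which are not replicates, and their difference was not tested.

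The other 9 genes, with an average mean under 60, had a median fold change of 3.36. Of the 60 genes, 6 had a fold change of at least 3, and each was the lowest paralog of its protein; the threshold of 3 and the level of 60 were chosen after the values were seen. Of the 6 genes that passed the minimum with an average mean under 60, 4 had a fold change of at least 3, as did 6.08% of all genes with an average mean from 10 to 60. Of these 4 genes, AT3G04770 of RPSa passed the minimum only through its IAA mean (5.57 in Control, 18.70 with IAA). Because the cuts were chosen on these values, the shares are a description and not a test.

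**Figure D2:**
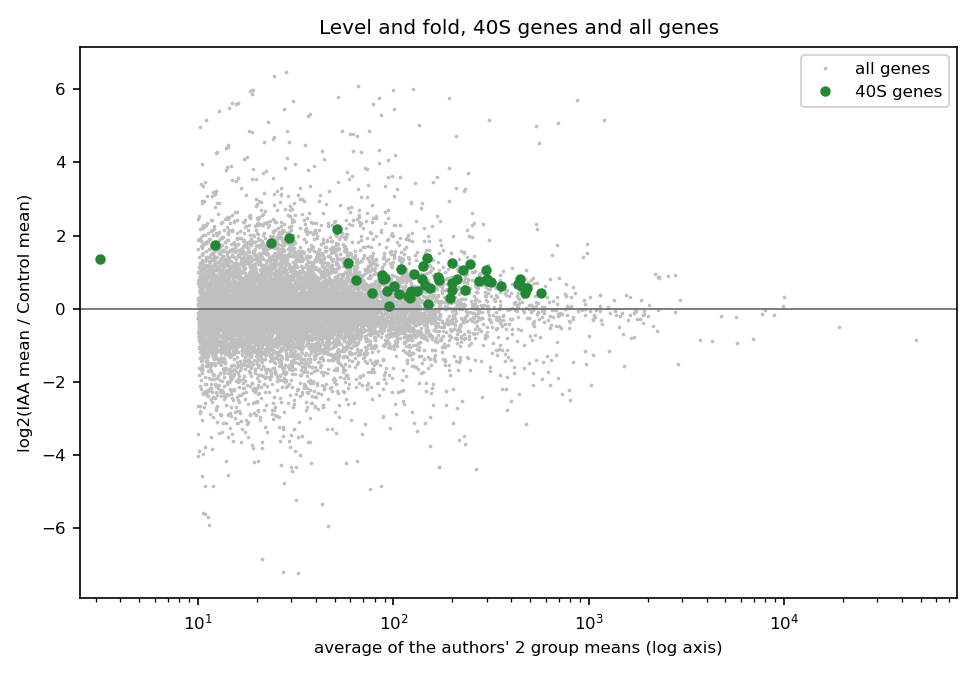
Log2 fold change (IAA mean over Control mean) against the average of both means (log axis) for the genes of the table with an average of at least 10 and both means above 0 (grey) and for 49 genes of the 40S subunit (green). The 40S genes lie above 0, within a band of 1.06-fold to 2.63-fold where the average is at least 60 and up to 4.55-fold below it.

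RPS9, a protein that lies at the mRNA entry side and bears on the accuracy of decoding in yeast and bacteria, had the widest contrast between paralogs that both passed the minimum. The RPS9 gene AT5G39850 had means of 18.49 in Control and 84.10 with IAA, a fold change of 4.55 (3.09 to 7.02), which was the highest among genes that passed the minimum. Its paralog AT5G15200 had means of 354.70 and 548.64, a fold change of 1.55 (1.40 to 1.71). The intervals do not overlap, and the share of AT5G39850 in RPS9 reads went from 4.95% to 13.3%. The ratio of both fold changes was 2.94 (1.97 to 4.59). AT5G15200 lies at 4934810 to 4936429 on chromosome 5 with 2 exons, and AT5G39850 at 15949910 to 15951475 on the same chromosome with 3 exons.

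The genes also differ in sequence before their start. Promoters of ribosomal protein genes of plants are known for 2 short elements: site II (searched as TGGGCC or TGGGCT), which is bound by TCP factors, and the telo-box (searched as AAACCCT), which resembles the plant telomere repeat. Both were searched on both strands. The 150 bases before the annotated start are shown for AT5G15200 (chr5:4936430-4936579, minus strand) and AT5G39850 (chr5:15949760-15949909, plus strand) in TAIR10.1, 5′ to 3′ on the strand of the gene, because this pair differs widely in both level and fold change. Capitals mark matches to either element (GGCCCA and AGCCCA are site II read on the other strand, AGGGTTT the telo-box read on the other strand).
RPS9 AT5G15200: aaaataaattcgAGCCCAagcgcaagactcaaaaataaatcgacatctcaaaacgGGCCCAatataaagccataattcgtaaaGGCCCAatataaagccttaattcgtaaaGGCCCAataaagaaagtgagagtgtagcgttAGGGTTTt
RPS9 AT5G39850: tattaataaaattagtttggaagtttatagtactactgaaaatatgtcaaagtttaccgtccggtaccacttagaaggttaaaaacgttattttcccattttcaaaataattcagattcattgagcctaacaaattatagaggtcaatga
AT5G15200 has 4 site II matches and 1 telo-box here. AT5G39850 has none before its start, although 2 site II matches follow in the first 50 bases after it.

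Minor paralogs of other proteins had high fold changes too. The RPS19 gene AT5G15520 had means of 12.15 and 46.32, a fold change of 3.81 (2.35 to 6.63), against 1.92 (1.57 to 2.34) for AT5G61170 and 1.42 (1.24 to 1.63) for AT3G02080, the highest of the RPS19 genes. RPS19, in the head of the subunit, is the protein most often mutated in human Diamond-Blackfan anaemia. The RPS2 gene AT3G57490 had means of 10.47 and 36.59, a fold change of 3.49 (2.00 to 6.09). RPS2 lines the mRNA entry channel, and its main gene here, AT2G41840, had means of 388.87 and 571.72, a fold change of 1.47 (1.34 to 1.62). The third RPS2 gene, AT1G58380 (XW6), lay between them in level and fold change, with means of 146.24 and 304.89 and a fold change of 2.08 (1.8 to 2.44).

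RPSa, the counterpart of the human laminin receptor precursor, sits at the mRNA exit side. Its minor gene AT3G04770 (RPSAb) had means of 5.57 and 18.70, a fold change of 3.36 (1.58 to 7.64), and its main gene AT1G72370 (P40) had means of 322.75 and 561.31, a fold change of 1.74 (1.57 to 1.93). These intervals overlap, and the ratio of both fold changes, 1.93, had an interval of 0.900 to 4.43.

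The RPS15 gene AT5G09500 was the lowest of the 60 per kb of exon in the average of both means and with IAA. Its means were 1.77 and 4.56, about 3 and 11 reads, and the interval of its fold change of 2.58 ran from 0.65 to 13.73. It lies 89 bases from another RPS15 gene, AT5G09510, in a tandem on chromosome 5 (2953884 to 2954918 and 2955008 to 2956683, both on the minus strand). AT5G09510 had means of 69.79 and 148.77, a fold change of 2.13 (1.72 to 2.67), and the unlinked AT1G04270 (RPS15) had 218.25 and 385.62, a fold change of 1.77 (1.56 to 2.01). The tandem neighbours thus differed widely in level, whereas the interval of AT5G09500 spans the fold changes of both other genes. RPS15 reaches with its tail toward the decoding site.

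Across the 23 proteins, the paralog with the lowest average mean had the highest fold change in 17, and in 18 when the lowest was taken from the Control means. In 8 proteins the lowest paralog held under 10% of the family's reads in Control, and the summed means of these 8 genes had a fold change of 3.11. Spearman's rho between average level per kb and fold change was -0.381 over the 60 genes and -0.037 over the 51 with an average mean of at least 60, against 0.003 between average mean and fold change over 11132 genes of the table. These are correlations across genes of the same libraries, and a fold change and a level share the same means. The correlation across the 60 genes thus rested on the minor genes. It pools all proteins and does not describe pairs of paralogs within a protein, which are given below.

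**Figure D3:**
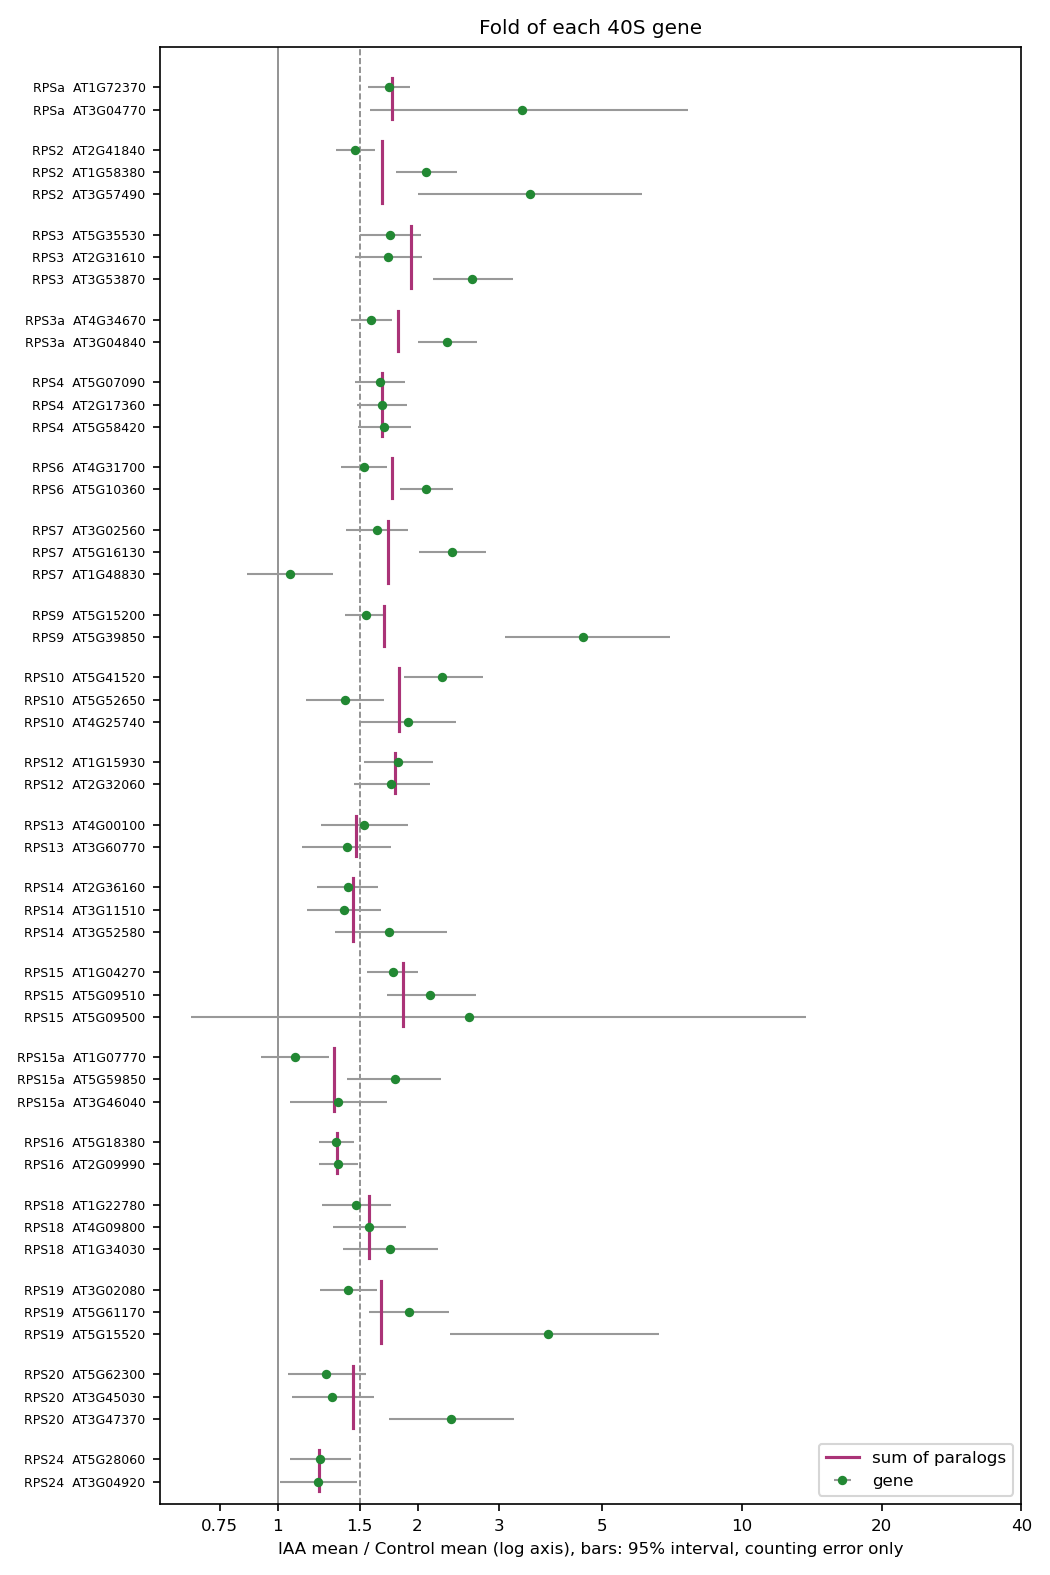
Fold change of each gene (green) with its 95% interval of counting error only, grouped by protein, and fold change of the summed paralogs of each protein (purple), on a log axis; lines stand at 1 and 1.5. Minor paralogs such as those of RPS9 (4.55) and RPS19 (3.81) lie to the right of their family sums (1.70 and 1.67). The 49 genes of 19 proteins are shown.

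Summed over paralogs, all 23 proteins had an interval of the fold change above 1, and 17 had a fold change of at least 1.5. The median of the family fold changes was 1.70, the lowest was 1.23 for RPS24, and 16 of the 23 lay from 1.5 to under 2. Their log2 values had an SD of 0.19 across proteins, against 0.42 across the 57 single genes and 0.28 across the 51 with an average mean of at least 60. A sum is weighted to the main paralogs, so a smaller SD is in part built in. In level per kb of exon, the sums ran from 166 for RPS13 to 844 for RPS16 in Control and from 244 to 1133 with IAA, spans of 5.08-fold and 4.64-fold.

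**Figure D4:**
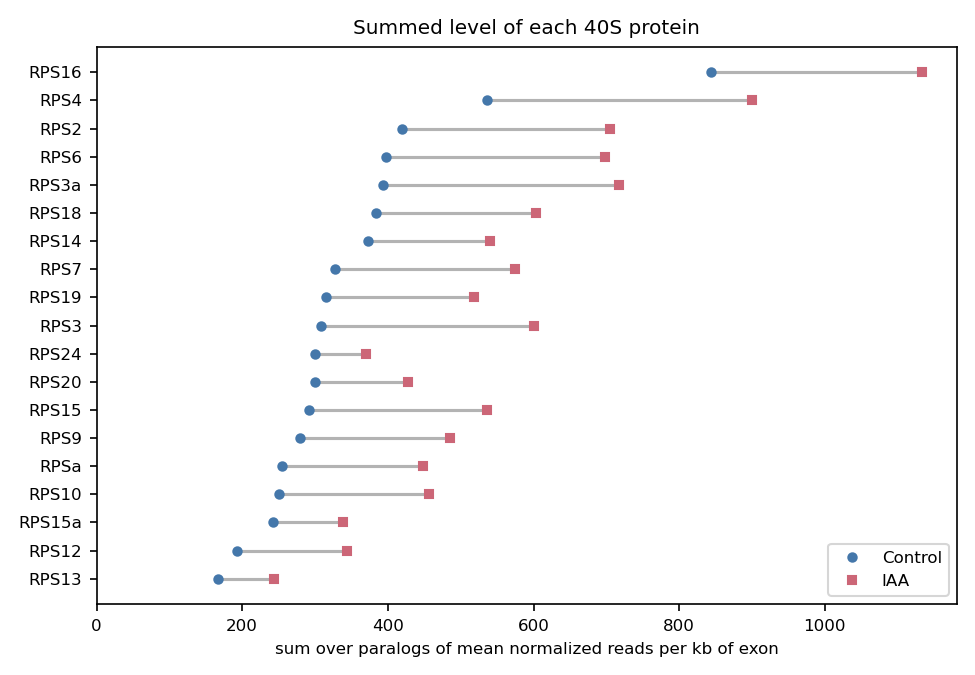
Summed authors' means per kb of exon over the paralogs of each of 19 proteins in Control (circles) and with IAA (squares), ordered by the Control level. RPS16 has the highest level at both points (844 and 1133) and RPS13 the lowest (166 and 244), and each square lies to the right of its circle.

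Proteins of the head include RPS15, RPS16, RPS18, RPS19 and RPS20. RPS16, whose tail reaches toward the tRNA in the peptidyl site, gave the highest levels per kb of the 60 genes. AT5G18380 stood at 445 per kb in Control and 594 with IAA, a fold change of 1.34 (1.22 to 1.46). AT2G09990 stood at 399 and 539 per kb, a fold change of 1.35 (1.23 to 1.49). The upper bounds of both lie below 1.5. High levels per kb were also seen for AT2G41840 of RPS2 (292 and 430) and AT4G34670 of RPS3a (269 and 428).

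RPS18 contacts the large subunit and is encoded by genes of which PFL (AT1G22780, RPS18A) is known from a mutant with pointed first leaves. Its means were 124.71 and 184.24, a fold change of 1.48 (1.24 to 1.75). RPS18C (AT4G09800) had means of 112.16 and 176.47, a fold change of 1.57 (1.32 to 1.89), and AT1G34030 had 64.62 and 112.67, a fold change of 1.74 (1.38 to 2.21). The 3 genes encode the same protein by their annotated coding sequences, and no ratio between their fold changes had an interval that left out 1 (highest ratio 1.18, 0.882 to 1.59).

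RPS20 likewise has a pair of genes with identical proteins, AT3G45030 (means of 92.31 and 121.01) and AT5G62300 (104.64 and 133.11). Their fold changes were 1.31 (1.07 to 1.62) and 1.27 (1.05 to 1.55), with a ratio of 1.03 (0.777 to 1.37). The third gene, AT3G47370, had means of 34.62 and 81.94, a fold change of 2.37 (1.74 to 3.24), and its share of RPS20 reads went from 15.0% to 24.4%. The stretches before the start of the pair are shown because genes with one protein and like fold changes differ there: AT3G45030 at chr3:16472410-16472559 and AT5G62300 at chr5:25022565-25022714, both on the minus strand.
RPS20 AT3G45030: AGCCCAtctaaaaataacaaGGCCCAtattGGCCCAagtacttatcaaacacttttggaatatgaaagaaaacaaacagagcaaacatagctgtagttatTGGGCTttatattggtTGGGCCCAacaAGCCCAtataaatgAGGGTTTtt
RPS20 AT5G62300: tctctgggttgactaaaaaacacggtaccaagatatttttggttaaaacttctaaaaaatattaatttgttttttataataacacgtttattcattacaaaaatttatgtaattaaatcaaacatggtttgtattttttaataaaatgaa
AT3G45030 has 7 site II matches, of which 2 overlap in TGGGCCCA, and 1 telo-box. AT5G62300 has none of either.

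The entry channel for mRNA is formed in part by RPS3, which in yeast also takes part in ribosome quality control. The RPS3 gene AT3G53870 had means of 81.80 and 214.80, a fold change of 2.63 (2.16 to 3.21), the highest among the 51 well-expressed genes. AT5G35530 had means of 153.22 and 267.23 and a fold change of 1.74 (1.5 to 2.04), and AT2G31610 had 125.21 and 215.96 and a fold change of 1.72 (1.46 to 2.05). With IAA, AT3G53870 and AT2G31610 thus reached like means from different Control means. The ratios of the fold change of AT3G53870 to those of its paralogs were 1.51 (1.17 to 1.93) and 1.52 (1.17 to 1.97).

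At the mRNA exit and the platform lie RPS14 and, beside it, RPS3a. The RPS14 genes AT2G36160, AT3G11510 and AT3G52580 had fold changes of 1.42 (1.22 to 1.65), 1.39 (1.15 to 1.67) and 1.73 (1.33 to 2.32). The RPS3a gene AT3G04840 had means of 149.05 and 345.58, a fold change of 2.32 (2.00 to 2.69), and AT4G34670 had 333.58 and 530.85, a fold change of 1.59 (1.44 to 1.77). These 2 intervals do not overlap, and the share of AT3G04840 in RPS3a reads went from 30.9% to 39.4%.

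RPS6 is the classical target of S6 kinase, which acts under the TOR kinase, a regulator of growth. RPS6B (AT5G10360) had means of 192.10 and 400.76, a fold change of 2.09 (1.83 to 2.38). RPS6A (AT4G31700) had means of 278.66 and 427.60, a fold change of 1.53 (1.37 to 1.72). The intervals do not overlap: the genes stood apart in Control and closer with IAA, where RPS6B held 48.4% of RPS6 reads. None of 6 genes of the TOR and S6 kinase list had a fold change of at least 1.5. TOR stood at 145.11 and 143.85, S6K1 at 47.18 and 47.56, RAPTOR1B at 115.56 and 111.68, and LST8-1 at 18.22 in both groups. RAPTOR1A had a fold change of 1.28 (0.72 to 2.45), and S6K2 one of 1.49 (1.05 to 2.17), the only interval of the list above 1. TOR signalling acts through phosphorylation, which these data do not measure.

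RPS7 had the widest spread among well-expressed paralogs. AT5G16130 had means of 117.83 and 279.59, a fold change of 2.37 (2.01 to 2.80). AT3G02560 had means of 152.09 and 248.60, a fold change of 1.63 (1.40 to 1.90). AT1G48830 had means of 92.40 and 98.12, a fold change of 1.06 (0.86 to 1.31), the lowest of the 60. No 2 of these intervals overlap, and here the lowest paralog had the lowest fold change, so that its share of RPS7 reads went from 25.5% to 15.7%. RPS7 is a body protein with a part in the processing of 18S rRNA in yeast.

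RPS10 lies in the beak of the head, near the mRNA entry. RPS10B (AT5G41520) had means of 86.60 and 195.93, a fold change of 2.26 (1.87 to 2.77), and AT5G52650, the highest RPS10 gene in Control, had 102.15 and 142.34, a fold change of 1.39 (1.15 to 1.69). The order of these 2 means was thus reversed with IAA, but their Control means rest on about 136 and 161 reads, and that difference was not tested. AT4G25740 had means of 60.09 and 114.67 and a fold change of 1.91 (1.5 to 2.43). The beak protein RPS12 had close fold changes for its genes, 1.81 (1.53 to 2.16) for AT1G15930 and 1.76 (1.46 to 2.12) for AT2G32060.

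RPS15a gave a contrast among genes of one protein. AT5G59850 and AT1G07770 (RPS15A) encode identical proteins, with 85.2% of coding bases in common. AT5G59850 had means of 65.08 and 116.35, a fold change of 1.79 (1.41 to 2.25). AT1G07770 had means of 143.16 and 156.30, a fold change of 1.09 (0.92 to 1.29). The ratio of both was 1.64 (1.22 to 2.19), so the gap between the genes was narrower with IAA than in Control. The third gene, RPS15AD (AT3G46040), had means of 65.76 and 88.85, a fold change of 1.35 (1.06 to 1.72).

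The remaining body and foot proteins were more even within families. The RPS4 genes AT5G07090, AT2G17360 and AT5G58420 stood at 236.83, 226.41 and 203.70 in Control, with fold changes of 1.66 (1.47 to 1.88), 1.68 (1.48 to 1.90) and 1.69 (1.49 to 1.93). The RPS13 genes AT4G00100 (RPS13A, known from the pfl2 mutant) and AT3G60770 had fold changes of 1.53 (1.24 to 1.91) and 1.41 (1.13 to 1.75). The RPS24 genes AT5G28060 and AT3G04920 had the lowest family fold change, with means of 174.93 and 216.02 for the former and 109.99 and 134.13 for the latter. Within each of these families, the intervals overlapped widely.

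Of 52 pairs of paralogs, 47 had both genes over the minimum. In 17 of the 47 pairs, from 10 proteins, the ratio of fold changes had a 95% interval of counting error that left out 1. The gene with the lower level had the higher fold change in 14 of these 17 pairs and in 36 of all 47, and the 3 exceptions were pairs of RPS7 (with AT1G48830) and RPS10 (AT5G41520 against AT5G52650). Among the 36 pairs with both average means of at least 60, 11 were apart by this measure. Annotated proteins of a pair shared from 58.3% to 100% of residues (median 94.3%), and 5 pairs had identical proteins, of which 1, that of RPS15a, was apart. The least alike pair was that of RPSa.

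According to the authors, only uniquely mapped reads were counted, which matters for genes as alike as these. All windows of 60 bases of the exons were unique in the genome for 53 of the 60 genes. The other 7 included the RPS2 gene AT1G58380 (75.1% of windows unique), both RPS16 genes (AT2G09990, 87.5%, and AT5G18380, 88.5%) and the RPS15a gene AT1G07770 (92.9%). Without these 7 genes, 37 of 50 had a fold change of at least 1.5. The contrasts given above for RPS9, RPS7 and RPS19 are between genes with unique windows only.

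In a window from 250 bases before to 50 bases after the annotated start, 42 of the 60 genes (70%) held site II, against 21.7% of 27443 promoters of protein-coding genes in TAIR10.1. The telo-box was found in 33 genes (55%) and in 10.02% of all promoters. With the bases before the start only, these counts were 38 (63.3%, against 19.2%) and 15 (25%, against 7.33%). There were 106 site II matches, overlapping ones included, and 85 of them began within 120 bases before the start, with a median first base 49 bases before it. Of 36 telo-boxes, 18 began after the start. A match is a description of sequence, not of binding.

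Both elements occurred in 26 genes and neither in 11. The median fold change was 1.70 for the 26, 1.53 for the 11, 1.76 for 16 genes with site II alone and 1.74 for 7 with the telo-box alone, and the ranges of these classes overlap. Genes with neither element included the RPS19 gene AT5G15520 (3.81) and both RPS16 genes (1.34 and 1.35), which are far apart in level and fold change. Before the start, site II was present in 36 of the 51 genes with an average mean of at least 60 and in 2 of the 9 below it. It was absent before the start from AT5G39850, AT5G15520 and AT3G04770, whereas 1 match of AT3G57490 spans the start. The letters TGTCTC and TGTCGG, known binding elements of auxin response factors, were searched after the other results were known and occurred in 8 of the 60 windows (13.3%), against 18.7% of all promoters.

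**Figure D5:**
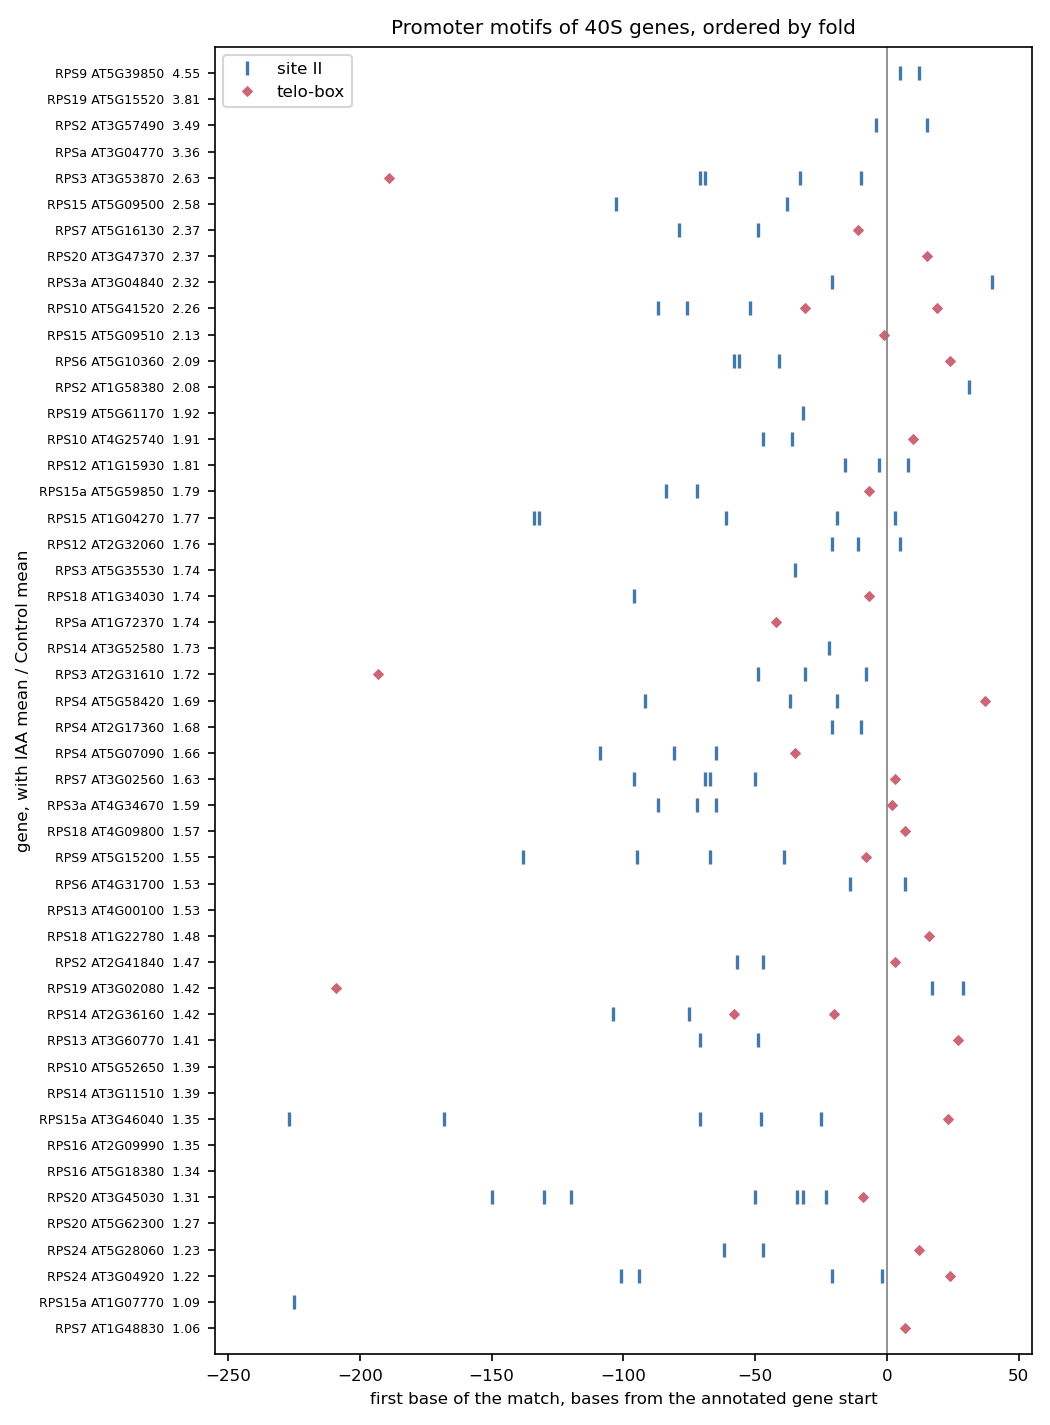
First base of each match to site II (bars) and the telo-box (diamonds), in bases from the annotated gene start, for 49 genes ordered by fold change (given after each name). Site II matches crowd within 120 bases before the start (72 of 91 shown), and some of the genes near the top, such as AT5G15520 (3.81) and AT3G04770 (3.36), have no match.

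The 40S subunit has further proteins outside this set: RPS21, RPS23, RPS25 to RPS30 and the scaffold RACK1. Of their 29 genes, 26 passed the minimum, of which 12 had a fold change of at least 1.5 and none lay at or below 1/1.5, with a median of 1.49. The fold changes of these 26 ran from 0.849 for the RPS29 gene AT3G43980 (21.98 and 18.66) to 4.42 (2.37 to 10.08) for the RPS25 gene AT4G34555 (6.66 and 29.42). The RACK1 genes AT1G18080, AT1G48630 and AT3G18130 had fold changes of 1.58, 1.88 and 2.57, in the order of falling Control mean. The difference between this list and the 60 genes was not tested. Of 5 listed factors that assemble the 40S subunit, 3 had a fold change of at least 1.5. These were BMS1 (33.35 and 102.07, a fold change of 3.06, 2.25 to 4.17), ENP1 (23.11 and 56.91, 2.46) and DIM1A (17.58 and 40.11, 2.28). NOB1 (46.99 and 68.52, 1.46) and RIO2 (32.67 and 43.65, 1.34) lay below 1.5.

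Values that speak to the samples are given together. Auxin response genes were far higher with IAA in the sense of the labels: GH3.3 stood at 32.49 and 1698.18 and IAA19 at 3.13 and 196.56. Of 7 markers of dividing cells, 6 had fold changes of at least 1.5, from 1.54 for MCM2 to 3.83 (2.5 to 5.92) for CDKB2;1, whereas CDKB1;1 stood at 13.23 and 13.22. Their summed mean was 112.89 in Control and 259.03 with IAA, none was at 0, and their part in the higher 40S means was not tested. The 4 shoot markers summed to 84.98 in Control and 10.29 with IAA, with each lower with IAA and none at 0, and their part in the result was not tested. All 7 root markers were above 0, with a sum of 136.54 and 83.47; CASP1 of the endodermis stood at 59.82 and 12.32, SCR at 30.95 and 37.56 and SHR at 23.97 and 16.87, while WER, GL2, PLT1 and PLT2 had average means under 10.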

How the data were processed

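The authors mapped SOLiD reads to TAIR10 with SHRiMP, counted uniquely mapped reads per gene with HTSeq and compared the groups with DESeq. The deposited signal used here is, for each gene and group, the mean over libraries of read counts that the authors had scaled by size factors. The table has 4 further columns (fold change, its log2, p-value and adjusted p-value) of the authors' own comparison, which were not used. Labels give 3 libraries per group. Low means (under 6) lie on sums of 2 steps per column (0.589 and 0.6345 in Control, 0.3665 and 0.4255 with IAA, all within 0.006). Means over 3 libraries of different depth would show 3 steps, so each deposited mean may rest on 2 libraries. The number behind each mean was not tested.

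Fold changes, per kb levels (exon length in TAIR10.1, whose nuclear chromosomes have the lengths of TAIR10) and exact counting intervals were computed in Python 3.11.15 with numpy 2.4.6, pandas 2.3.3 and scipy 1.17.1. Reads are the mean over the larger step, so intervals are somewhat wide for counting error alone. They leave out the spread between libraries and PCR copies, and bounds that held these would be wider. Intervals that do not overlap, and pairs called apart, are thus not cautious calls. Coding sequences and proteins were aligned in pairs with Biopython 1.88. The search for steps was run on simulated data drawn with the number of steps found here and counting error only. Such data cannot show how many libraries stand behind a mean, nor how the intervals hold with spread between libraries. Promoters and windows come from the RefSeq annotation of TAIR10.1. Members and gene lists were chosen with earlier results of these data known. Any of the 60 genes could be named, of lists of up to 7 genes all, and of the other 40S genes the highest and lowest. RACK1, RPS2 copies and further minor paralogs of the other 40S genes were named after their values were seen. Alternatives were other thresholds, minimum means, a pseudocount of 1, rescaled means and wider intervals. Values of some of the 60 genes are not reported singly here; these genes stay in counts and medians over the set.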

Additional observations from a re-analysis of the deposited data

How the results depend on the processing

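At a fold change of at least 2 in place of 1.5, 13 of the 57 genes and 1 protein were higher, against 41 and 17. With the bases before the start only, the telo-box count was 15 in place of 33. The other 32 alternatives kept the results: 37 to 53 genes were higher, 50 to 55 were higher beyond counting error, 0 were lower, the median log2 fold change lay between 0.75 and 0.84, 15 to 22 proteins were higher and 15 or 16 pairs of paralogs were apart. Rescaling to the same sum moves log2 fold changes by 0.07, and to a median of 0 among genes with an average mean of at least 100 by 0.03. Restricting the genes to those with unique windows and adding the RPS2 copies were chosen after seeing the data.

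No paired analysis was possible because the table gives group means and no value per library; for the same reason leaving out each replicate was not run, and libraries were not searched for one that stands apart. With 3 to 29 reads behind the Control means of the 6 genes with the highest fold changes, their size is known within wide bounds only. Agreement of many genes within one pair of means does not replace replicates.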

Other observations

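Outside the 60 genes, the loci AT1G58684, AT1G58983 and AT1G59359, annotated as RPS2, each had the same means, 193.28 in Control and 417.66 with IAA, a fold change of 2.16 (1.90 to 2.46). Such equal means would not be expected if only uniquely mapped reads were counted. Of 2686 genes with an average mean of at least 60, 28 shared both means with another gene, and none of the 60 genes described here was among them. Whether reads that map to several places were counted, also for the listed RPS2 gene AT1G58380, was not tested. With this value added once, the RPS2 sum was 738.86 in Control and 1330.86 with IAA, a fold change of 1.8, against 1.67 for the listed genes.

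Some minor paralogs among the other 40S genes also had a high fold change. The RPS23 gene AT3G09680 had means of 2.45 and 14.62, a fold change of 5.97 (2.03 to 22.11), while its paralog AT5G02960 had 246.57 and 410.88, a fold change of 1.67 (1.48 to 1.88). The RPS25 gene AT2G16360 had means of 0.59 and 4.75, about 1 read in Control, a ratio of 8.05 (1.07 to 317.5). Other minor paralogs had intervals that held 1. The lowest genes of RPS29 (AT3G43980), RPS28 (AT3G10090) and RPS27 (AT2G45710) had fold changes of 0.849 (0.529 to 1.35), 1.65 (0.918 to 3.21) and 1.73 (0.778 to 3.91).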
